A study of Mus musculus with 12 samples.

Results

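The matrix proteoglycans described here were 10 genes chosen by name: decorin (Dcn), lumican (Lum), biglycan (Bgn), fibromodulin (Fmod), osteoglycin (Ogn), asporin (Aspn), Prelp, versican (Vcan), podocan (Podn) and perlecan (Hspg2). Their probes were found through the accession that each array lists for a probe. Of the 10 genes, 9 had at least 1 probe, and Prelp was not analysed here. The 9 genes had 12 probes, of which 11 passed the filter on dim probes, and all 9 genes were kept, against 13328 genes kept of 20660 with a named probe.

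Proteoglycans are core proteins that carry long sulphated sugar chains, the glycosaminoglycans. The small leucine-rich proteoglycans sit on collagen fibrils, where they set fibril diameter and spacing, and several of them bind growth factors such as TGF-beta. Versican forms large aggregates with hyaluronan, and perlecan is a heparan sulphate proteoglycan of basement membranes. In the mammary gland, fibroblasts of the stroma are a main source of the leucine-rich members, while basement membranes border both epithelium and vessels.

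The samples were mammary tumours of FVB mice that carry the MMTV-wnt1 transgene, in which the mammary tumour virus promoter drives Wnt1 in mammary epithelium. Mice were Rarb -/- (KO), lacking retinoic acid receptor beta, or Rarb +/+ (WT), and no age or treatment was given. From each tumour, laser capture microdissection gave an epithelial and a stromal sample, whose RNA was labelled with Cy3 and hybridised beside a Cy5-labelled universal mouse reference RNA. The 4 groups of 3 arrays were KO epithelium (tumours 1, 3 and 4), WT epithelium (tumours 1, 2 and 3), KO stroma (tumours 1, 3 and 4) and WT stroma (tumours 1, 2 and 3). The transgene was present in every group, so no group was free of Wnt1-driven tumour. No tissue-specific driver is named for the Rarb deletion, so epithelium and stroma of a KO tumour both lacked the gene by their labels. The labels do not say that the tumours came from separate mice, so p-values measure only the spread between these samples. Every value below is a log2 ratio of tumour sample over reference, and a level of 1 gene is not set against that of another, since probes differ in brightness.

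Between 37.1% and 47.3% of probes were well above background in Cy3 per array, and no spot was saturated. All epithelial arrays lay on slide 1 and all stromal arrays on slide 2, so compartment and slide cannot be told apart, and KO arrays lay in row 1 and WT arrays in row 2 of each slide, so genotype and row cannot be told apart. The Rarb probe did not separate the genotypes: in stroma it averaged 1.50 ± 0.81 for KO against 0.36 ± 0.89 for WT (SD, n = 3 each, adjusted p = 0.401), and 0.24 ± 1.26 in KO epithelium and 0.29 ± 0.91 in WT epithelium (adjusted p = 0.994), so it does not check the labels. WT tumour 2 went against its compartment labels for fibroblast markers. The mean of 12 such genes was -0.42 in its stroma and 0.42 in its epithelium, while the other 5 tumours had the higher mean in stroma. Other marker lists of this tumour did not all run that way. Its stroma and epithelium had luminal means of 2.94 and 3.29, T and NK cell means of 4.17 and 0.66, and macrophage means of 1.16 and 1.19. Results are therefore also given without 1 or both of its arrays.

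The promoters of the 3 members that passed the test between KO and WT stroma are shown. RefSeq (build GRCm38.p6) gave a promoter for 8 of the 10 symbols; Dcn and Lum are named only. Each line holds the 250 bases before the transcription start, 5′ to 3′ in the direction of the gene, on the plus strand in each case, and capitals mark matches on either strand to TATAAA (the TATA box), GGGCGG (the GC box) or CATTCC (a TEAD site).
Ogn, chr13:49607765-49608014: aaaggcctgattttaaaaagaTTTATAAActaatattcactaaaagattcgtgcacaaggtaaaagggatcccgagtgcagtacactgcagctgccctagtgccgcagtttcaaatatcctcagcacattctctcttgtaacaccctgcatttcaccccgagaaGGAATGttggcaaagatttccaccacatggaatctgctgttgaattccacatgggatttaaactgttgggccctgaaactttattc
Aspn, chr13:49544193-49544442: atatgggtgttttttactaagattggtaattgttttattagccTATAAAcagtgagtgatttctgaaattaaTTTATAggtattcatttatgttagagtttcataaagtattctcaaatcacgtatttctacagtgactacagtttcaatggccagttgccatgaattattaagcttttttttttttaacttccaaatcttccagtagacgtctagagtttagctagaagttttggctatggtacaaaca
Hspg2, chr4:137468553-137468802: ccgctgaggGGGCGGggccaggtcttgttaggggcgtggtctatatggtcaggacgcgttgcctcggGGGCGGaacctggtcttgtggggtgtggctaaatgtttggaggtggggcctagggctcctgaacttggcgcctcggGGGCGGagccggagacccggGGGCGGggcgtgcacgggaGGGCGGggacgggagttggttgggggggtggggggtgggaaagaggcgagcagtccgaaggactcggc

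The Ogn window held TATAAA on both strands, as 1 overlapping run that starts 229 bases before the start site, and CATTCC on the minus strand 86 bases before it. The Aspn window held TATAAA at 207 bases on the plus strand and at 178 bases on the minus strand. Hspg2 had no such match and held GGGCGG 5 times, between 241 and 68 bases before the start. TATAAA occurred in 12.4% of all 32851 promoter windows of this length, CATTCC in 12.6% and GGGCGG in 32.7%. The base composition differed: G and C made up 42% of the Ogn window, 30% of the Aspn window and 70% of the Hspg2 window. The retinoid receptor half-site AGGTCA was in none of these 3 windows and in 1 of the 9 windows of members, that of a Podn promoter, against 14% of all windows. The direct repeat bound by retinoic acid receptors, AGGTCA followed by another AGGTCA after 5 free bases, was in no member's window and in 0.00913% of all. The AP-1 site TGACTCA and the SMAD site CAGACA matched no member's window, against 4.46% and 17.1% of all windows. A match is a description of letters and not a bound site.

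Ogn and Aspn lie on chromosome 13 in 1 run of protein-coding genes, Ecm2, Aspn, Omd and Ogn. Dcn and Lum are direct neighbours on chromosome 10, followed by Kera and Epyc, and Prelp and Fmod are neighbours on chromosome 1.

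**Figure D1:**
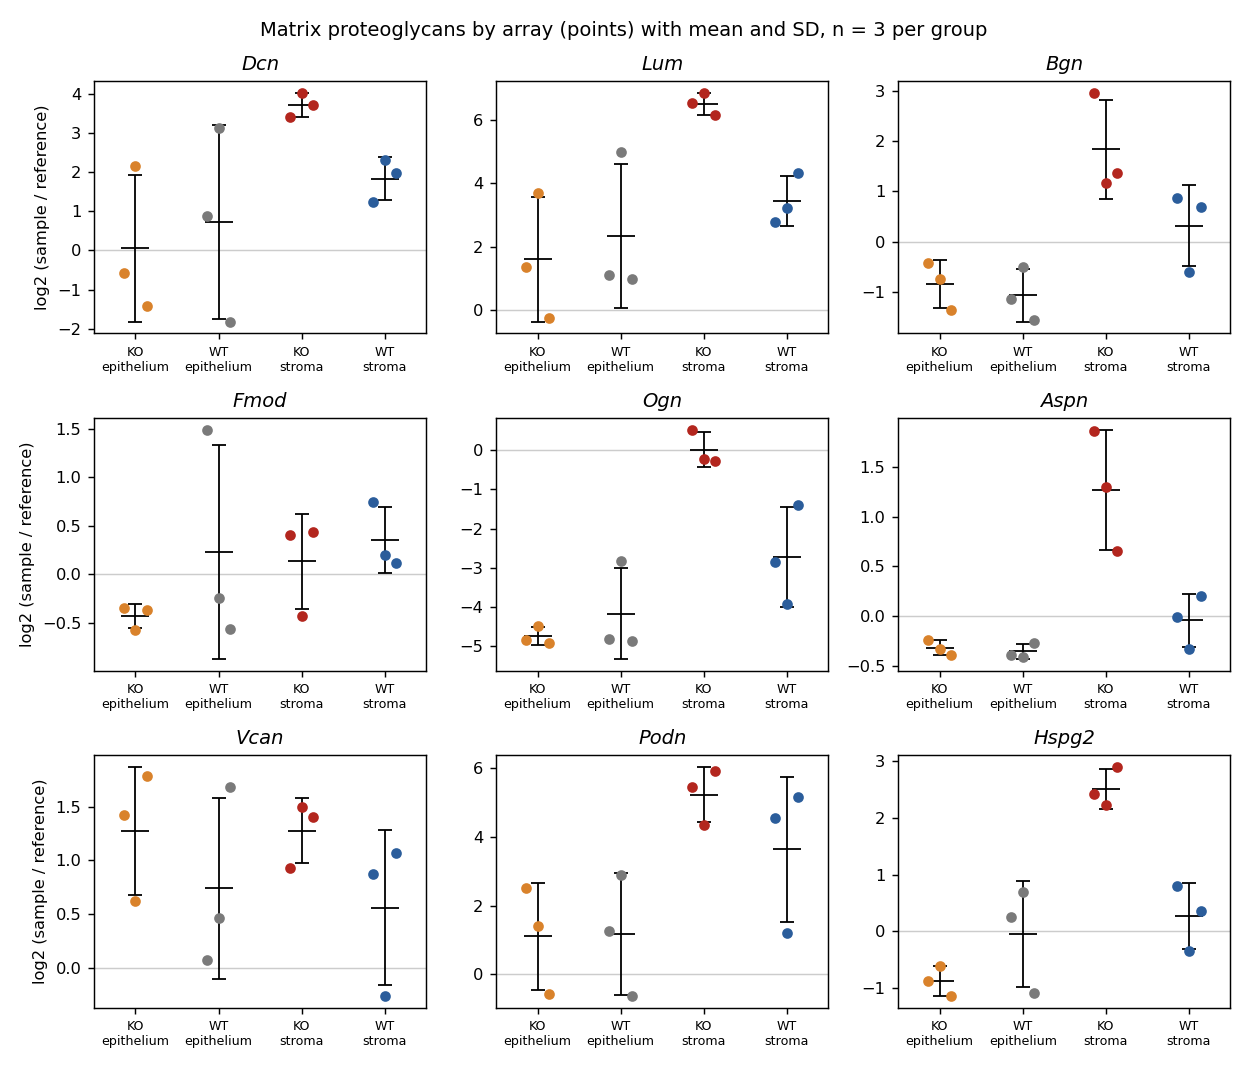
Log2 ratio of tumour sample over reference RNA for the 9 measured matrix proteoglycans; each point is 1 array and the bars are the mean and SD of the 3 arrays of a group. For Dcn, Lum, Bgn, Ogn, Aspn and Hspg2 every KO stroma point lies above every WT stroma point, while no gene separates KO from WT epithelium. Aspn met the filter on dim probes only through KO stroma.

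KO stroma carried more RNA of the matrix proteoglycans Ogn, 6.68-fold higher, and Hspg2, 4.72-fold higher by its brighter probe, than WT stroma. A dimmer Hspg2 probe differed by 0.30 on the log2 scale and did not pass. Aspn passed the test too, but its probe was well above background on 1 of 3 WT stromal arrays and met the filter on dim probes only through KO stroma, so no fold is given for it. With Aspn, 3 of 9 members had an adjusted p under 0.05 in limma, and 2 of 8 without it, against 6.33% of all genes kept, of which 3.48% were higher and 2.84% lower in KO stroma. The differences of 8 members were positive and 1 was negative, with a median of 1.60 on the log2 scale, or 1.74 over the 8 members without Aspn, against -0.01 over all genes kept. At an unadjusted p under 0.05 the count was 5 of 9, or 4 of 8 without Aspn, against 21.5% of all genes. In bulk samples such as these, more cells of a type and more RNA per cell cannot be told apart.

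Among the class I leucine-rich proteoglycans, which share dermatan or chondroitin sulphate chains or, in Aspn, a stretch of aspartates, Dcn wraps collagen fibrils and sequesters TGF-beta. Dcn had log2 ratios of 3.40, 4.03 and 3.71 in KO stroma of tumours 1, 3 and 4, against 1.23, 2.31 and 1.97 in WT stroma of tumours 1, 2 and 3. The groups did not overlap, yet the difference of 1.88 ± 1.13 (SE) missed the threshold (adjusted p = 0.383; 95% interval -0.62 to 4.38) in the fit over 12 arrays, whose spread takes in the epithelial arrays. With the 6 stromal arrays alone the same difference passed (adjusted p = 0.0461). Bgn, a close relative of Dcn that also acts as a ligand of Toll-like receptors, had 2.96, 1.16 and 1.37 in KO stroma, against 0.86, -0.60 and 0.68 in WT stroma. The lowest KO value lay just above the highest WT value, and the difference of 1.51 ± 0.53 (SE) did not pass (adjusted p = 0.121; 95% interval 0.34 to 2.68).

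Aspn, an inhibitor of TGF-beta and BMP signals at the fibril surface, had 1.86, 1.30 and 0.65 in KO stroma, against -0.0036, -0.33 and 0.21 in WT stroma. All 3 KO arrays were above all 3 WT arrays. The probe was well above background on 3 of 3 KO and 1 of 3 WT stromal arrays, so the WT values are mostly those of a signal at background, and the gene was among those tested only through the KO stroma where it is high. In the fit its adjusted p was 0.0209, and 0.0689 without the stromal array of WT tumour 2, 0.0908 without both arrays of that tumour, 0.0533 without the stroma of KO tumour 1, 0.0537 without that of KO tumour 3 and 0.0731 without that of WT tumour 1.

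Among class II members, which carry keratan sulphate, Lum keeps collagen fibrils thin and evenly spaced. Lum had 6.53, 6.84 and 6.14 in KO stroma, against 2.78, 3.21 and 4.32 in WT stroma. The groups stood clearly apart, with a difference of 3.06 ± 1.12 (SE), the highest among the 9 members; it missed the threshold in the fit over 12 arrays (adjusted p = 0.137; 95% interval 0.59 to 5.54) and passed with the 6 stromal arrays alone (adjusted p = 0.0341). Fmod, which competes with Lum for a site on type I collagen and is best known from tendon, had 0.41, -0.43 and 0.43 in KO stroma, against 0.74, 0.20 and 0.12 in WT stroma. These groups overlapped, and the difference was -0.22 ± 0.46 (SE, adjusted p = 0.837; 95% interval -1.25 to 0.81).

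Ogn, a class III member also called mimecan, had 0.52, -0.22 and -0.27 in KO stroma, against -2.85, -3.92 and -1.40 in WT stroma. All KO values were more than 1 log2 unit above the highest WT value, and the difference was 2.74 ± 0.65 (SE, adjusted p = 0.0344). The call was narrow: without the stromal array of WT tumour 2 the difference was 2.14 (adjusted p = 0.102), though without both arrays of that tumour it passed at the same difference (adjusted p = 0.0407), and the adjusted p was 0.112 without KO stroma of tumour 1, 0.0715 without that of tumour 3, 0.0627 without that of tumour 4 and 0.113 without WT stroma of tumour 1. It was 0.0513 without KO epithelium of tumour 1 and 0.0503 without that of tumour 4. Podn, a class V member first described in kidney and known to restrain smooth muscle cells, had 5.45, 4.33 and 5.91 in KO stroma, against 4.54, 1.21 and 5.15 in WT stroma. The groups overlapped because 2 WT arrays lay among the KO arrays and the array of WT tumour 2 lay far below; the difference was 1.60 ± 1.17 (SE, adjusted p = 0.486; 95% interval -0.99 to 4.19) and 0.39 without that array.

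Of the large proteoglycans, perlecan (Hspg2) had 2.42, 2.21 and 2.89 in KO stroma, against 0.80, -0.35 and 0.36 in WT stroma. The groups did not overlap, and the difference was 2.24 ± 0.44 (SE, adjusted p = 0.0177). Without the stromal array of WT tumour 2 it was 1.93 (adjusted p = 0.0582), without both arrays of that tumour it passed (adjusted p = 0.0471), and the adjusted p was 0.0533 without the stroma of KO tumour 1 and 0.0501 without that of KO tumour 4. A dimmer probe for the same Hspg2 transcript averaged 0.61 ± 0.36 over KO and 0.31 ± 0.29 over WT stromal arrays (SD, n = 3 each). Its groups overlapped, and the difference of 0.30 did not pass in limma (adjusted p = 0.529 over all probes). Only the brighter probe separated the genotypes. Vcan, which keeps the matrix hydrated and open to migrating cells, had 0.93, 1.50 and 1.41 in KO stroma, against 0.88, -0.26 and 1.07 in WT stroma. These values overlapped, with a difference of 0.72 ± 0.48 (SE, adjusted p = 0.435; 95% interval -0.34 to 1.77). A second Vcan probe, for another transcript accession, gave -0.20 (adjusted p = 0.769 over all probes), and the remaining Vcan probe had no array with a signal well above background.

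Of the 8 members other than Aspn, KO and WT stroma did not overlap for Dcn, Lum, Bgn, Ogn and, by its brighter probe, Hspg2. Among all genes kept, 26.4% did not overlap in either direction and 13.2% with KO higher. The Aspn groups did not overlap either, but Aspn met the filter on dim probes only through KO stroma and is not counted. Without the stromal array of WT tumour 2, limma called none of the 9 members and 362 genes in place of 843, with a median member difference of 1.17. Without both arrays of that tumour, a fit chosen after seeing the data, it called 2 members, Ogn and Hspg2, and 299 genes. Without the KO stroma array of tumour 1 it also called 0 members, with 315 genes. Without KO stroma of tumour 3 (520 genes) or of tumour 4, or WT stroma of tumour 1 (175 genes), it called 1. Leaving out 1 array, or both arrays of WT tumour 2, gave 175 to 930 of 13328 genes called. The sign of every member except Fmod stayed the same in each of these leave-one-out fits.

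**Figure D2:**
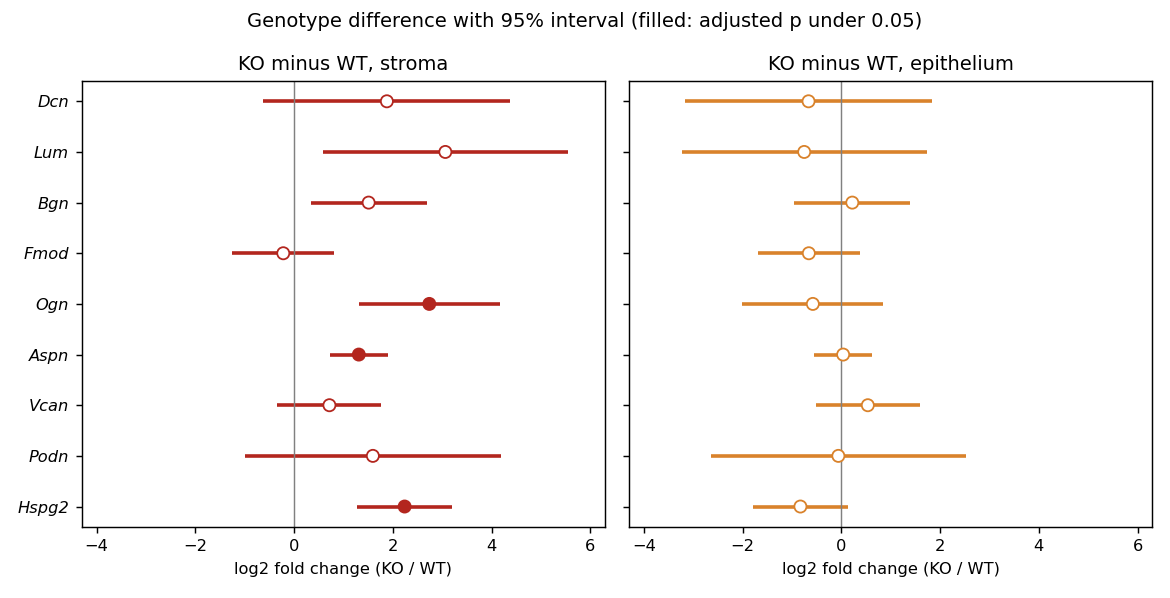
Log2 fold change of KO over WT with its 95% interval for each measured matrix proteoglycan, in stroma on the left and in epithelium on the right; filled points have an adjusted p under 0.05. Ogn, Aspn and Hspg2 are filled in stroma, Ogn at 2.74 and Hspg2 at 2.24; Aspn was above background on 1 of 3 WT stromal arrays and on no epithelial array, and all epithelial intervals include 0.

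Markers of other cells moved with genotype in stroma. All 12 fibroblast markers were higher in KO stroma and 5 passed, where 3.48% of all genes passed as higher and 2.84% as lower, among them Fap, Cd34, Col6a2 and Pdgfra; the list's mean ran between 2.32 and 2.72 on KO arrays and between -0.42 and 1.26 on WT arrays. All 7 measured macrophage markers were higher in KO stroma and 3 passed (Fcer1g, C1qc and Aif1), with list means of 3.55 to 4.02 on KO arrays and 1.16 to 2.54 on WT arrays. All 9 measured luminal epithelial markers were lower in KO stroma and 6 passed, with list means of 0.73 to 1.58 on KO arrays and 2.80 to 3.82 on WT arrays. The WT stromal range reached that of epithelial arrays, 3.46 to 3.94 in KO epithelium and 3.29 to 3.89 in WT epithelium. Wnt1 itself, the transgene's product, was at 3.24 ± 0.49 in KO against 6.77 ± 0.37 in WT stroma (mean and SD, n = 3 each, adjusted p = 0.000852). In epithelium it was at 7.26 ± 0.27 in KO and 7.35 ± 0.28 in WT (mean and SD, n = 3 each). Of the remaining lists, no basal epithelial, endothelial, pericyte and smooth muscle, adipocyte, T and NK cell or red cell marker passed. Mb of the skeletal muscle list fell by 3.72 and Sox10 of the Schwann cell list fell by 2.10. Of the measured markers, 2 of 3 in the skeletal muscle list and 2 of 4 in the Schwann cell list were higher in KO stroma. Some lists without a called marker still had means that did not overlap between KO and WT stroma. Endothelial means were 1.57 to 2.57 on KO against 0.93 to 1.38 on WT arrays. Red cell means were 5.29 to 6.02 against 4.31 to 4.57. Basal epithelial means were lower, 2.75 to 4.02 against 4.33 to 4.88. Pericyte and smooth muscle, adipocyte and T and NK cell means overlapped. The T and NK cell mean was 4.17 in WT stroma of tumour 2, against 0.25 and 0.35 in tumours 1 and 3. KO stromal arrays had -0.06 to 1.31. All 6 T and NK cell markers were lower in KO stroma, and none passed. The part of these markers in the proteoglycan differences was not tested.

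**Figure D3:**
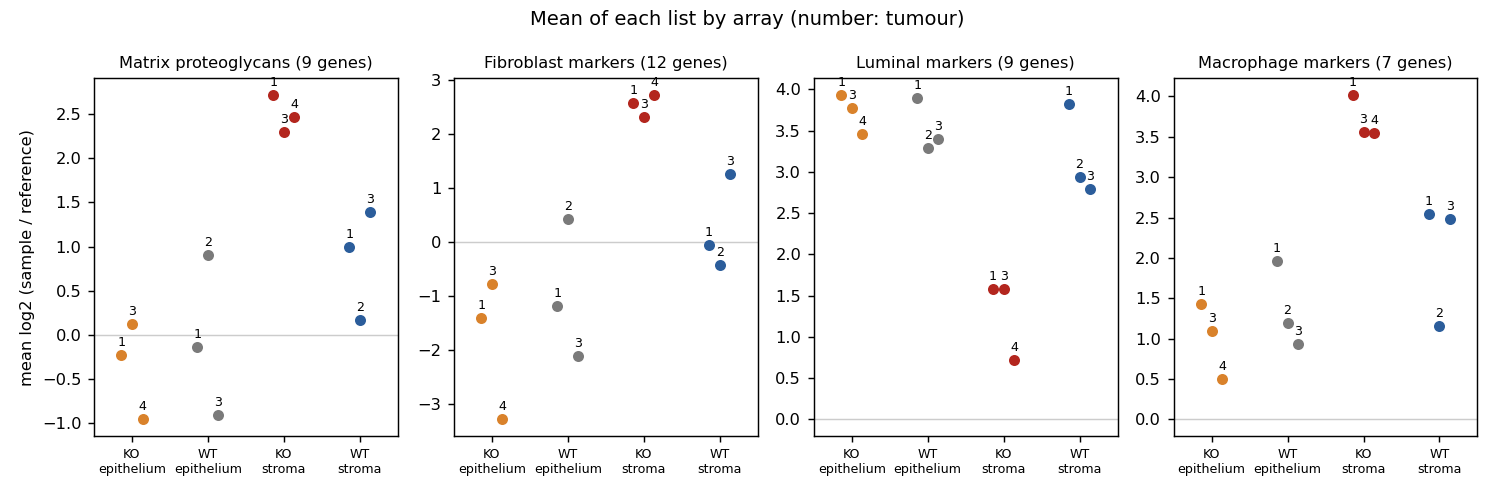
Mean log2 ratio per array over the matrix proteoglycans and over 3 lists of cell type markers, with the tumour number beside each point. KO stroma has the highest means of the proteoglycans, the fibroblast and the macrophage markers and the lowest means of the luminal markers, and WT stroma lies between KO stroma and the epithelial arrays for the proteoglycan list in tumours 1 and 3.

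In epithelium limma called 1 gene between KO and WT, 0.0075% of all genes, and 0 of 9 members, or 0 of 8 without Aspn. An unadjusted p under 0.05 was found for 0 of 9, or 0 of 8 without Aspn, against 8.09% of all genes. No member had groups that did not overlap, against 14% of all genes. At these shares, counts of 0 do not set the members apart from other genes. The median member difference was -0.58, against 0.03 over all genes kept, with 3 positive and 6 negative, or 2 and 6 without Aspn. Dcn had -0.56, 2.16 and -1.42 in KO epithelium of tumours 1, 3 and 4, against 0.88, 3.11 and -1.82 in WT epithelium of tumours 1, 2 and 3. Lum had 1.36, 3.67 and -0.25 in KO epithelium, against 1.11, 4.97 and 0.97 in WT epithelium. For both genes the spread within a genotype was wider than the difference between genotypes, -0.66 for Dcn (95% interval -3.17 to 1.84) and -0.75 for Lum (95% interval -3.23 to 1.72).

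The epithelial arrays of KO tumour 3 and WT tumour 2 held the high values of both genes. Those same arrays had the highest fibroblast marker means of their group, -0.78 for KO tumour 3 and 0.42 for WT tumour 2, and adipocyte marker means of 1.93 and 3.87, also the highest of their group. Without WT epithelium of tumour 2, and likewise without both arrays of that tumour, the median member difference turned to 0.40, and Dcn, Lum, Ogn and Podn changed sign.

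Of the other members, Hspg2 had the lowest unadjusted p in epithelium: it had -0.88, -0.61 and -1.14 in KO epithelium, against 0.25, 0.70 and -1.09 in WT epithelium, a difference of -0.83 ± 0.44 (SE, adjusted p = 0.656; 95% interval -1.79 to 0.14). The WT array of tumour 3 lay within the KO range. Fmod had -0.35, -0.57 and -0.36 in KO epithelium, against 1.49, -0.24 and -0.56 in WT epithelium, where 1 array stood high. Vcan had 1.42, 0.62 and 1.79 in KO epithelium, against 0.07, 0.46 and 1.69 in WT epithelium, with wide overlap.

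Ogn was well above background on 1 of 3 KO and 2 of 3 WT epithelial arrays and Bgn on 2 of 3 in each group; their epithelial differences were -0.58 (95% interval -2.01 to 0.85) and 0.22 (95% interval -0.95 to 1.40). Podn differed by -0.06 (95% interval -2.65 to 2.53), the widest interval of the 9. None of the 6 epithelial arrays had an Aspn signal well above background, so its genotypes cannot be compared there.

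Stroma carried more of these genes than epithelium in the fit that blocks on tumour: Lum, Bgn and Hspg2 were 8.01-, 4.08- and 3.60-fold higher in stroma. Ogn, above background on 6 of 6 stromal and 3 of 6 epithelial arrays, was 8.62-fold higher by its measured values, which rest in part on epithelial signals at background, as do those of Bgn with 4 of 6. With Aspn 5 of 9 members passed, and 4 of 8 without it, against 15% of all genes, of which 8.39% were higher and 6.63% lower in stroma. At an unadjusted p under 0.05 the count was 7 of 9, or 6 of 8 without Aspn, against 31.2% of all genes. The median member difference was 2.03, or 2.21 without Aspn, against -0.03 over all genes kept. The adjusted p was 0.0146 for Ogn (3.11 ± 0.54, SE), 0.0335 for Lum (SE 0.69), 0.0137 for Bgn (2.03 ± 0.35) and 0.0155 for Hspg2 (1.85 ± 0.33). The dimmer Hspg2 probe, above background on 11 of 12 arrays, differed by only 0.29 (adjusted p = 0.377 over all probes). Dcn (2.38 ± 0.65, SE, adjusted p = 0.0546) and Podn (3.29 ± 0.97, SE, adjusted p = 0.0654) did not pass. Since each compartment had its own slide, these differences hold slide and tissue together.

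No epithelial array measured Aspn above background, so it has no exact difference between compartments. KO stroma held at least 2.51-fold more Aspn than KO epithelium, with each epithelial array's signal set at no less than the dimmest signal that was well above background. This bound comes from Cy3 signals and was not tested. In WT tumours, with 1 of 3 stromal arrays above background, no fold is given. Of the other 8 members, none was higher in the stroma of all 6 tumours, against 8.02% of all genes kept.

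Lum was higher in stroma by 5.17, 3.17 and 6.39 in KO tumours 1, 3 and 4, against 1.68, -1.75 and 3.36 in WT tumours 1, 2 and 3. Ogn differed by 5.37, 4.27 and 4.65 in KO tumours, against 1.96, -1.08 and 3.47 in WT tumours. Podn differed by 2.94, 2.94 and 6.48 in KO tumours, against 3.29, -1.69 and 5.79 in WT tumours. For each of these genes WT tumour 2 alone ran the other way; it had the lower value in stroma for 7 of the 8 members other than Aspn, all but Fmod.

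Fmod and Vcan did not follow the other members. Fmod was higher in stroma by 0.34 ± 0.21 (SE, adjusted p = 0.330; 95% interval -0.17 to 0.85), in 5 of 6 tumours. Vcan differed by -0.09 ± 0.27 (SE, adjusted p = 0.864; 95% interval -0.74 to 0.56), with stroma higher in 2 of 6 tumours, KO tumour 3 by 0.87 and WT tumour 1 by 0.80. Over the 3 KO tumours it differed by 0.0012, where Dcn, Podn, Ogn and Lum differed by 3.65, 4.12, 4.77 and 4.91.

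Within KO tumours 6 of 9 members passed, or 5 of 8 without Aspn, all higher in stroma, against 20.1% of all genes and 10.2% in that direction: Dcn (12.6-fold), Lum (30.1-fold), Bgn (6.38-fold), Hspg2 (10.4-fold), Ogn and Aspn. Ogn was above background on 1 of 3 KO epithelial arrays and Bgn on 2 of 3, and the measured Ogn values differed 27.2-fold. The dimmer Hspg2 probe averaged 0.61 in KO stroma and 0.15 in KO epithelium. Within WT tumours 0 of 9 passed, against 0.0075% of all genes. An unadjusted p under 0.05 was found for 1 of 9 members, Bgn (1.38 ± 0.49, SE), or 1 of 8 without Aspn, against 8.77% of genes. These counts do not set the members apart from other genes. Without WT tumour 2, the fit over both genotypes called 7 members, or 6 of 8 without Aspn, all but Fmod and Vcan, with 1385 of 13328 genes called. Dcn was then at 2.86 (adjusted p = 0.0488) and Podn at 4.33 (adjusted p = 0.0164). Without KO tumour 1 the fit called 3 members and 1116 genes. Without KO tumour 4 it called 2 members and without WT tumour 1 it called 1. Leaving out a tumour gave 940 to 1385 genes called, against 2001 with all tumours.

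**Figure D4:**
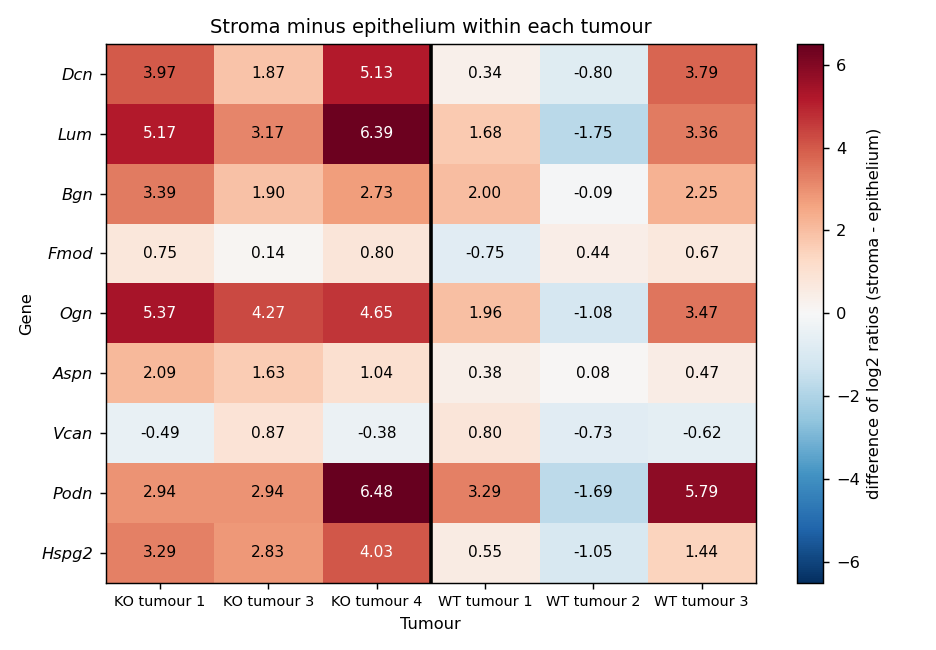
Difference of log2 ratios, stroma minus epithelium, within each of the 6 tumours for the 9 measured matrix proteoglycans, with KO tumours left of the line and WT tumours right of it; red is higher in stroma and blue is lower. KO tumours are red for every member but Vcan, and WT tumour 2 is blue for 7 of the 9. Aspn was above background on no epithelial array, so its row has no exact size.

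The difference of KO minus WT was higher in stroma than in epithelium for the 8 members other than Aspn, which was not measured above background in epithelium. It was higher by 3.82 ± 1.38 for Lum, 3.32 ± 1.08 for Ogn, 3.07 ± 0.65 for Hspg2, 2.54 ± 1.31 for Dcn, 1.66 ± 1.93 for Podn, 1.29 ± 0.69 for Bgn, 0.44 ± 0.43 for Fmod and 0.18 ± 0.55 for Vcan (log2, SE), but none passed the test of that difference. The adjusted p was 0.104 for Hspg2, 0.196 for Ogn and 0.223 for Lum; limma called 0% of all genes, and 18.1% of genes and 3 of these 8 members, the same 3, had an unadjusted p under 0.05. Stroma minus epithelium averaged 4.77 ± 0.56 for Ogn in KO tumours and 1.45 ± 2.32 in WT tumours (SD, n = 3 each). For Hspg2 it averaged 3.38 ± 0.61 in KO tumours and 0.32 ± 1.26 in WT tumours (SD, n = 3 each). With the dimmer Hspg2 probe, the difference of the genotype effects was 0.34 (adjusted p = 0.691 over all probes). Stroma minus epithelium was lowest in tumour 2 among the WT tumours for Ogn (-1.08) and for Hspg2 by its brighter probe (-1.05). Without that tumour, the difference of the genotype effects was 2.05 for Ogn, 2.39 for Hspg2 and 2.39 for Lum. Those of Podn and Vcan turned to -0.42 and -0.09.

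Across the 12 arrays, most members varied together. The 36 pairs of members had a median Pearson r of 0.72, between -0.50 (Fmod and Vcan) and 0.94 (Dcn and Lum); the arrays share 2 compartments, 2 slides and 1 reference RNA, which feeds into every r. Taken as deviations from the 4 group means, the median was 0.23, with 25 of 36 pairs positive. The neighbours Dcn and Lum still had 0.87 there, and Podn went with Hspg2 at 0.82, Bgn at 0.75 and Ogn at 0.74. Ogn and Aspn, which share a run of genes on chromosome 13, had 0.43. Vcan ran apart from Dcn, at -0.70.

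The genes most like the mean of the members over the 12 arrays were Islr (r = 0.99), Loxl2 (0.99), Arsa, Svep1, Col5a1, Nbl1, Bicc1 and Adamts2 (all 0.98). Loxl2 crosslinks collagen, Col5a1 is a chain of type V collagen, which starts fibrils, and Adamts2 trims procollagens. Their r of deviations from group means ran between 0.89 (Adamts2) and 0.96 (Islr and Nbl1). By member, the gene most alike was Gsn for Dcn, Igfbp6 for Lum, Thbs2 for Bgn, Klhl35 for Fmod, Adamtsl1 for Ogn, Fbn1 for Aspn, Plekha8 for Vcan, Itgbl1 for Podn and Tmem119 for Hspg2, with r between 0.93 (Klhl35) and 0.99 (Adamtsl1).

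Genes around the members were examined in KO and WT stroma by list. The counts are to be read against the 3.48% of all genes called higher and the 2.84% called lower. Of 6 other small leucine-rich genes measured, Ecm2, the neighbour of Aspn on chromosome 13, was higher in KO stroma by 1.77 ± 0.36 (SE, adjusted p = 0.0207), and 3 of 6 had positive differences. Of 8 measured fibrillar collagens that these proteoglycans bind, 3 rose, all chains of type V collagen: Col5a1 by 3.21 (adjusted p = 0.0222), Col5a2, above background on 1 of 3 WT stromal arrays, by 1.05 (0.0293) and Col5a3 by 3.38 (0.0301). The list's median was 2.49, and 3 of its 10 genes, chains of type I and III collagen, are also among the fibroblast markers.

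The counts in the next lists also stand beside 3.48% of all genes called higher and 2.84% called lower. Of 13 measured membrane proteoglycans 2 rose in KO stroma, the syndecan Sdc3 by 1.53 (adjusted p = 0.00685) and the glypican Gpc3, above background on 1 of 3 WT stromal arrays, by 2.07 (0.0488). Of 19 measured genes that build the sugar chains, 2 rose and 1 fell: Ugdh, which makes UDP-glucuronate, by 1.36 (adjusted p = 0.0415), Papss2, which makes the sulphate donor, by 1.99 (0.0499), and the exostosin-like Extl1 by -0.83 (0.0390). In heparan sulphate modification, 1 of 9 rose, the 6-O-sulphotransferase Hs6st2 by 0.97 (adjusted p = 0.0316). Of 16 measured turnover genes 2 rose, Bmp1, which cleaves procollagens and the propeptides of Bgn and Ogn, by 2.43 (adjusted p = 0.0207), and the lysosomal Gusb by 0.98 (0.0380).

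No gene passed in the other 5 lists. Among 8 other large and basement membrane proteoglycans, Agrn (-0.58, adjusted p = 0.347) and Col18a1 (1.18, adjusted p = 0.406) had the lowest p. Among 8 genes of chondroitin and dermatan sulphate modification these were the dermatan sulphate epimerase gene Dsel (1.22, adjusted p = 0.0790) and the sulphotransferase Chst7 (1.12, adjusted p = 0.0959), and among 4 of keratan sulphate synthesis Chst1 (1.19, adjusted p = 0.311) and Chst2 (0.38, adjusted p = 0.518). Among 7 genes of hyaluronan and its link proteins they were Hapln3 (-1.47, adjusted p = 0.165) and Has1 (0.47, adjusted p = 0.265). Among 14 bound growth factors and receptors they were Tgfbr2 (1.71, adjusted p = 0.0532), a receptor for the TGF-beta that Dcn binds, and Lrp1 (1.71, adjusted p = 0.169). The medians of these lists lay between -0.03 and 0.28, against -0.01 over all genes kept. In KO against WT epithelium, 0 genes of these 11 lists passed.

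Between stroma and epithelium, the same lists held more calls, read against 15% of all genes. Of the collagens 6 of 8 were higher in stroma, among them Col5a1 by 3.11, Col1a2 by 3.94, Col5a2 by 0.80 and Col5a3 by 2.56. Of the chain-building genes 5 of 19 were higher, Papss2 by 2.83, Csgalnact1, which starts chondroitin chains, by 2.06 and Chpf2 by 0.94 among them, and Extl1 fell by 0.79. Turnover genes rose in 4 of 16 cases, the stromelysin Mmp3 by 3.26, heparanase (Hpse) by 1.87, Adamts1 by 1.40 and Gusb by 1.01. Single genes of other lists were higher too: Srgn, the proteoglycan of blood cell granules, by 2.67 and the heparan 6-O-endosulphatase Sulf1 by 2.51. So were Chst1 by 1.87, Itih5 by 0.97 and Tgfbr2 by 2.12. Ecm2 passed as higher too, but it was above background on no KO epithelial array, so no size is given. Of the membrane proteoglycans Sdc3 (1.13) and Cspg4 (1.19), the NG2 proteoglycan of pericytes, were higher, and Cspg5 fell by 1.46. No gene of chondroitin and dermatan sulphate modification passed.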

How the data were processed

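Laser-captured epithelium and stroma of 6 tumours were measured on 12 two-channel arrays. Per the file headers, the deposited scanner files came from Agilent Feature Extraction 10.7.3.1 (array design on mm9) and hold spot and background intensity values; their processed intensity was background-subtracted and dye-normalized by that software. The deposited log10 ratio runs Cy5 over Cy3 (reference over sample), per the labels' dyes, and was turned here to log2 of sample over reference. The authors' deposited value table is on a log2 scale with its direction not stated. Its epithelial columns ran reference over sample (r -0.90 to -0.87 with the ratios used here) and served as an alternative, while its stromal columns went with no array (r near 0) and were not used.

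Median signals were corrected with normexp (offset 50) and normalized by loess within arrays in limma 3.58.1 (R 4.3.3). The number of arrays limits the precision. Probes well above background in Cy3 on at least 3 of 12 arrays were kept. Of 55681 probes, 27235 were named by accession through RefSeq (GRCm38.p6), and each gene took the values of its brightest probe that passed, except where every probe of a member is given. limma's moderated test with Benjamini-Hochberg adjustment over 13328 genes (threshold 0.05) used the 4 group means for KO against WT, and tumour as a block for stroma against epithelium and for the difference between the 2 genotype effects. Genotype and number in the titles name a tumour in both compartments; deviations from group means in the 2 compartments of a tumour had correlations of 0.09, 0.29 and 0.23 for KO tumours 1, 3 and 4 and 0.45, 0.29 and 0.25 for WT tumours 1, 2 and 3, of which KO tumour 1 is under 0.1. The block is used because the 2 samples come from the same tumour. The fits were tested on simulated data.

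The 9 measured members were followed in every comparison, with up to 4 called genes of each related list, or the 2 with the lowest p where none was called; likeness was ranked by Pearson r over the 12 arrays. The members, lists and tests were chosen with earlier results of these data known. Alternatives changed the background correction, normalization, channel, filter, probe rule, array weights, blocks and samples; leaving out both arrays of WT tumour 2 for KO against WT was added after seeing the data.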

Additional observations from a re-analysis of the deposited data

How the results depend on the processing

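The 3 calls between KO and WT stroma depended on the processing. Members called were 2 with Agilent's processed signals (543 genes), 1 with median centring (203 genes), 1 when a probe had to be above background on all 12 arrays (of 6 members left), 3 with the 6 stromal arrays alone (293 genes; Dcn, Lum and Hspg2) and 0 with the replicate block on the number in the titles (5 genes). Leaving out 1 array, or both arrays of WT tumour 2 (2 members, 299 genes), gave 0 to 3 members and 175 to 930 genes, and Fmod between -0.37 and 0.066; the other 8 members stayed positive under every setting run. The numbers do not pair KO with WT tumours: only 2 are shared, and same-numbered samples had correlations of 0.04 and -0.06 in stroma and 0.30 and -0.30 in epithelium.

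In epithelium the 1 gene called became 0 with Agilent's processed signals, Cy3 alone, the filter on all 12 arrays, 6 arrays alone, the replicate block and the authors' deposited table, and was 0 to 1 on leaving out an array. With the replicate block the members' median was 0.17, with Dcn at 1.27, Lum at 1.48, Ogn at 0.17 and Podn at 1.65; with array weights Bgn was -0.016. Leaving out an array gave medians of -0.97 to 0.40, with Dcn between -1.94 and 0.53, Lum between -1.79 and 0.56, Ogn between -0.92 and 0.091, Podn between -0.97 and 0.80, Bgn between -0.026 and 0.50 and Aspn between -0.0046 and 0.081.

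Between stroma and epithelium, 8 members passed with Cy3 alone (3310 genes), 3 with the filter on all 12 arrays, 0 in WT tumours alone (1 gene), and 1 to 7 on leaving out a tumour (940 to 1385 genes, against 2001); median centring gave 1181 genes. The members' median was 3.20 with Agilent's processed signals, 3.38 in KO tumours alone and 1.09 in WT tumours alone. Vcan was 0.0012 in KO tumours alone and between -0.33 and 0.047 on leaving out a tumour.

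For the difference between the genotype effects no member passed under any setting. Genes called were 34 with Cy3 alone, 22 with no filter, 93 with the filter on all 12 arrays and 80 with array weights. They were 50 without the tumour block, and 0 to 130 on leaving out a tumour. The members' median was 2.62 with Agilent's processed signals, 2.33 with array weights and 1.16 to 3.32 on leaving out a tumour, with Vcan between -0.26 and 0.67 and Podn between -0.42 and 3.32. The cause of these changes was not tested. With 3 arrays a group, no dye swap and at most 47.3% of probes above background, dim probes such as Aspn carry bounds only in epithelium.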
